A study of Homo sapiens with 12 samples.

Results

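Fulvestrant was added to estradiol (E2) in cultures of Ishikawa, an established human endometrial adenocarcinoma cell line, and its effect on RNA levels is described here over both arms of the study together. The comparison rests on 8 of the 12 libraries of the series, taken by their labels: 4 libraries from cells given E2 with fulvestrant were set against 4 libraries from cells given E2 alone. One arm carried a control hairpin (shNC) and the other a hairpin against ARID1A (shARID1A), the DNA-binding subunit of the BAF form of the SWI/SNF chromatin remodelling complex. The E2 groups received 10 nM 17-beta-estradiol and the fulvestrant groups received 10 nM 17-beta-estradiol with 100 nM fulvestrant, in each case for 8 h; the fulvestrant dose is typed in the labels with letters for zeros and was read as 100 nM. The remaining 4 libraries, from cells given DMSO as vehicle, were used only for values set beside the comparison. All groups shared DMEM without phenol red and serum treated with charcoal and dextran, which removes most steroid hormone. Each of the 6 groups held 2 libraries. The labels do not say whether these came from separate cultures, or how many hairpins or clones stand behind an arm, so p-values measure only the spread between libraries, which may be technical. In bulk RNA, fewer cells of a kind and less RNA per cell cannot be told apart.

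Estradiol acts mainly through the estrogen receptors, ligand-activated transcription factors encoded by ESR1 and ESR2 that bind DNA at estrogen response elements and recruit coactivators. Fulvestrant competes with estradiol for the receptor, holds it in an inactive shape and promotes its degradation. A transcript that E2 raises through the receptor is therefore looked for among those lower with fulvestrant, and one that E2 represses among those higher. In hormone-responsive endometrial epithelium, PGR (the progesterone receptor) and GREB1 (a receptor coactivator) are classical transcripts raised by estrogen.

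The 8 libraries held 29829330 to 38589497 counts assigned to genes, and 20936 to 21850 genes had a count in each. Mitochondrially encoded genes took 4.77% to 5.02% of counts in shNC and 5.51% to 5.73% in shARID1A. ARID1A, the targeted gene, stood at 122 and 124 CPM with E2 and 119 and 110 CPM with fulvestrant in shNC, and at 56.8 and 56.9 CPM with E2 and 53.9 and 58.9 CPM with fulvestrant in shARID1A (CPM, counts as a rate over the library's total after TMM scaling). The knockdown therefore left ARID1A at a lower level in each shARID1A library than in any shNC library, and its pooled difference between treatments was -0.06 on the log2 scale (SE 0.05, adjusted p = 0.582). Of the epithelial markers for the line, KRT8 (343 to 620 CPM), KRT18 (194 to 319 CPM) and MUC1 (66.2 to 115 CPM) were abundant in the 8 libraries. CDH1, the epithelial cadherin, lay between 0 and 0.659 CPM, EPCAM between 0.384 and 1.98 CPM, and PAX8 between 1.33 and 2.98 CPM. Of the 9 markers listed, 8 were in the data and 6 passed the low-count filter. KRT19, another keratin, and the claudins CLDN3 and CLDN4 were not among those 6. The label of an epithelial endometrial line was thus borne out by KRT8 and KRT18, and not by CDH1 or EPCAM. The summed level of the 6 immune markers was 1.36 to 2.79 CPM with E2 and 1.66 to 3.02 CPM with fulvestrant, with CD3E and LYZ at 0. The 7 stromal fibroblast markers summed to 37.5 to 53.4 CPM with E2 and 32.3 to 51.4 CPM with fulvestrant, and the endothelial and neural markers each to at most 0.659 CPM.

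The receptors themselves were scarce in these libraries. ESR1, which encodes estrogen receptor alpha, had 34 and 11 counts with E2 and 16 and 15 counts with fulvestrant in shNC. In shARID1A it had 12 and 24 counts with E2 and 2 and 11 counts with fulvestrant. The treatments overlapped in shNC and did not in shARID1A, and the pooled log2 fold change of -0.75 (SE 0.47) did not pass the test (adjusted p = 0.458). ESR2, which encodes estrogen receptor beta, had 0 to 9 counts per library and was not tested. PGR had 0 counts in all 12 libraries, which allows up to 3 counts, or 0.0813 to 0.103 CPM, in each (for counting error only). GREB1 stood at 5.53 and 7.26 CPM with E2 and 5.12 and 5.72 CPM with fulvestrant in shNC, and at 5.73 and 5.31 CPM with E2 and 6.29 and 5.68 CPM with fulvestrant in shARID1A. Its treatments overlapped in both arms (log2 fold change -0.07, SE 0.14, adjusted p = 0.862).

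Adding fulvestrant to E2 changed 33 of the 16998 genes tested at an adjusted p under 0.05 with edgeR's quasi-likelihood test and the arm as a block. Of these, 22 rose, 0.129% of genes tested, and 11 fell, 0.0647%. The changes were small: 1.12- to 1.34-fold among genes that rose and 1.12- to 1.27-fold among genes that fell, and 0 of the 33 passed 1.5-fold. At an unadjusted p under 0.05 there were 2573 genes, or 15.1%, with 1397 higher and 1176 lower. Over the same genes, E2 against DMSO gave 0 calls with edgeR and 0 with DESeq2, with 653 genes (3.84%) at an unadjusted p under 0.05. E2 with fulvestrant against DMSO also gave 0 calls with either tool, with 1519 genes (8.94%) at an unadjusted p under 0.05. The 3 comparisons share libraries in pairs. Fatty acid synthase, the gene with the smallest p, is described first. The number of calls rested on single libraries: it was 1 without replicate 1 of shNC with E2, 1 without replicate 2 of shARID1A with E2, and 330 without replicate 2 of shNC with E2. It was 5, 2, 3, 50 and 2 without replicate 1 or 2 of shNC with fulvestrant, replicate 1 of shARID1A with E2, and replicate 1 or 2 of shARID1A with fulvestrant.

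**Figure D1:**
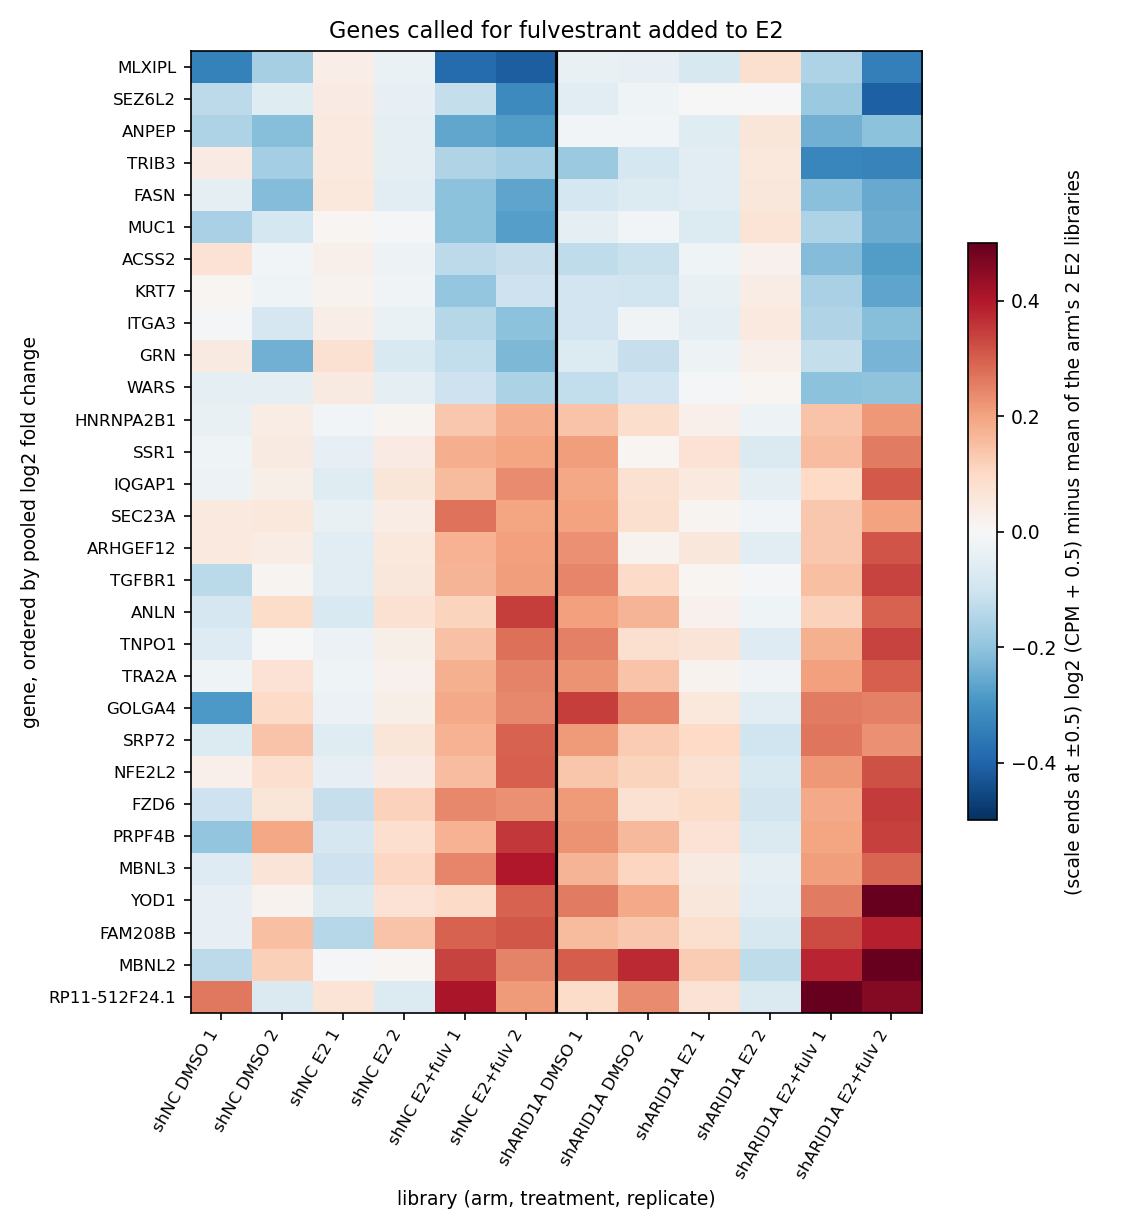
Called genes (30 of the 33, in rows ordered by pooled log2 fold change) in each of the 12 libraries (columns, shNC left and shARID1A right of the line). Colour gives log2 (CPM + 0.5) minus the mean of the 2 E2 libraries of the same arm, and values past 0.5 in either direction have the end colour. The upper 11 genes are blue and the lower 19 red in all 4 fulvestrant libraries, which the rule for calling them used; the DMSO libraries vary more, with replicate 1 of shARID1A close to the fulvestrant libraries for many of the 19.

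FASN encodes fatty acid synthase, which builds palmitate from acetyl-CoA and malonyl-CoA. Its level was 2993 and 2777 CPM with E2 and 2502 and 2402 CPM with fulvestrant in shNC, and 1947 and 2103 CPM with E2 and 1749 and 1698 CPM with fulvestrant in shARID1A. Both fulvestrant libraries lay below both E2 libraries in each arm. The fall was 1.18-fold (log2 fold change -0.23, SE 0.03, adjusted p = 0.000504), with -0.23 (SE 0.05) within each arm from group means over the 12 libraries. With DMSO the level was 2792 and 2481 CPM in shNC and 1905 and 1932 CPM in shARID1A. E2 against DMSO gave 0.10 (SE 0.04, adjusted p = 1.00) and E2 with fulvestrant against DMSO gave -0.13 (SE 0.03, adjusted p = 0.430) on the log2 scale. The deposited annotation counts FASN over 3119 exon bases of hg19, chromosome 17, 80036478 to 80043536 on the minus strand. This is a part of the gene: the longest transcript in GENCODE v29 has 8565 bases. FASN was called under each of the 16 alternative settings, with log2 fold changes from -0.26 to -0.14, and it was the single gene called when replicate 1 of shNC with E2, or replicate 2 of shARID1A with E2, was left out.

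ACSS2 encodes the cytosolic enzyme that makes acetyl-CoA from acetate, a substrate for lipid synthesis. It stood at 491 and 473 CPM with E2 and 440 and 445 CPM with fulvestrant in shNC, and at 444 and 458 CPM with E2 and 388 and 372 CPM with fulvestrant in shARID1A. The treatments did not overlap in either arm, and ACSS2 fell by 0.18 on the log2 scale (SE 0.04, adjusted p = 0.0421). MLXIPL encodes ChREBP, a glucose-responsive transcription factor for lipogenic genes. Its level was 31.5 and 30.0 CPM with E2 and 23.4 and 23.0 CPM with fulvestrant in shNC, and 16.9 and 18.9 CPM with E2 and 16.0 and 14.0 CPM with fulvestrant in shARID1A. MLXIPL fell the most of the called genes, by 0.35 on the log2 scale (SE 0.08, adjusted p = 0.0495), close to the threshold; the fall was 0.41 (SE 0.10) in shNC and 0.26 (SE 0.12) in shARID1A.

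**Figure D2:**
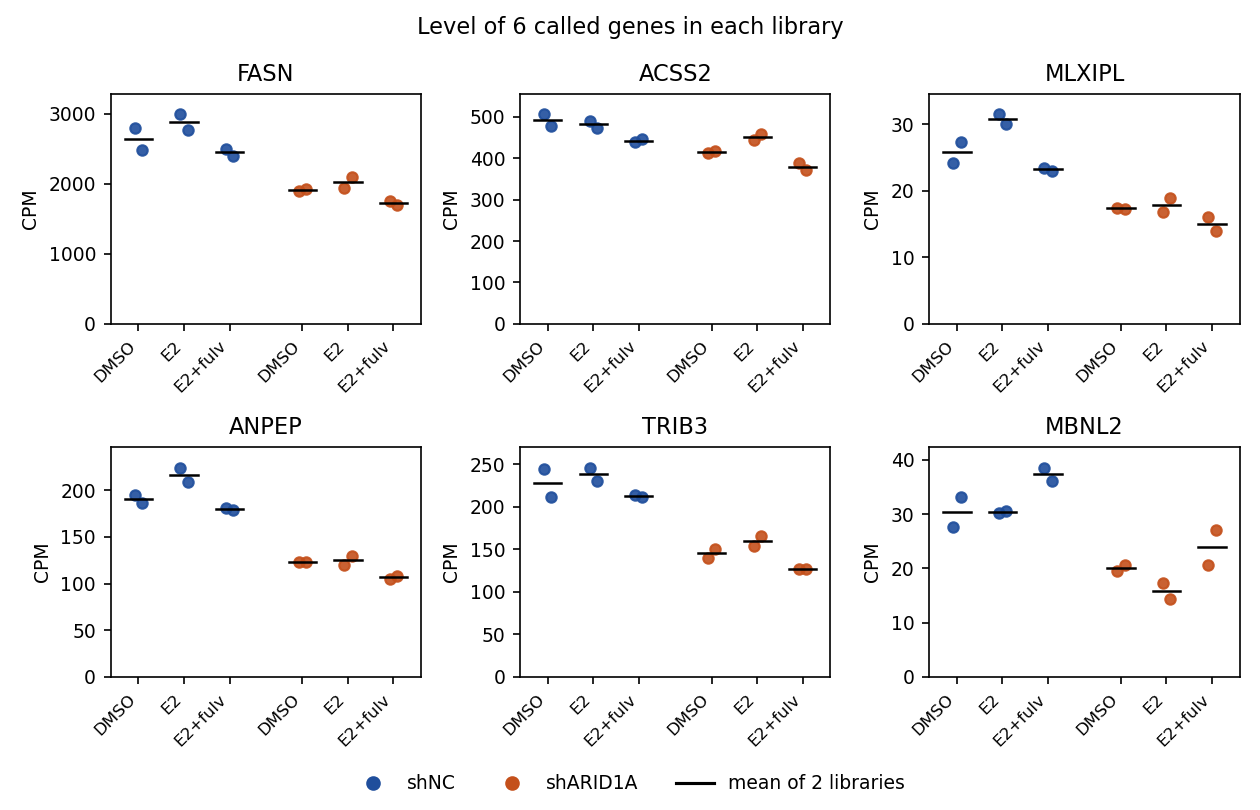
Level in CPM (linear axis from 0) of FASN, ACSS2, MLXIPL, ANPEP, TRIB3 and MBNL2 in each library, by treatment, with shNC in blue, shARID1A in orange and a black bar at the mean of the 2 libraries of a group. In the first 5 genes both fulvestrant points lie below both E2 points in each arm, and for MBNL2 both lie above.

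The other genes that fell encode a stress regulator, a tRNA synthetase and surface or secreted proteins. TRIB3, a pseudokinase induced by the integrated stress response, was at 246 and 230 CPM with E2 and 214 and 211 CPM with fulvestrant in shNC, and at 154 and 165 CPM with E2 and 127 and 126 CPM with fulvestrant in shARID1A. It fell by 0.24 on the log2 scale (SE 0.04, adjusted p = 0.0239). WARS, the cytosolic tryptophanyl-tRNA synthetase, was at 512 and 481 CPM with E2 and 462 and 445 CPM with fulvestrant in shNC, and at 438 and 444 CPM with E2 and 382 and 384 CPM with fulvestrant in shARID1A. It fell by 0.17 (SE 0.04, adjusted p = 0.0451). ANPEP, the cell-surface aminopeptidase N, was at 224 and 209 CPM with E2 and 181 and 178 CPM with fulvestrant in shNC, and at 120 and 130 CPM with E2 and 105 and 108 CPM with fulvestrant in shARID1A. Its fall of 0.25 on the log2 scale (SE 0.04) had the second smallest adjusted p of the genes that fell, 0.0198.

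MUC1, a membrane mucin of gland epithelia, fell by 0.23 on the log2 scale (SE 0.05, adjusted p = 0.0467). It went from 115 and 113 CPM with E2 to 98.8 and 94.2 CPM with fulvestrant in shNC, and from 75.0 and 82.6 CPM to 70.7 and 66.2 CPM in shARID1A. KRT7, a keratin of simple and glandular epithelia, fell by 0.18 (SE 0.04, adjusted p = 0.0440), from 453 and 443 CPM to 392 and 416 CPM in shNC and from 532 and 559 CPM to 488 and 454 CPM in shARID1A. ITGA3, the alpha-3 integrin subunit of laminin receptors, fell by 0.18 (SE 0.04, adjusted p = 0.0446), with E2 libraries at 336 to 412 CPM and fulvestrant libraries at 298 to 358 CPM over both arms. GRN, which encodes the secreted growth regulator progranulin, fell by 0.17 (SE 0.04, adjusted p = 0.0467), with E2 libraries at 569 to 721 CPM and fulvestrant libraries at 493 to 627 CPM. SEZ6L2, a membrane protein, fell by 0.26 (SE 0.06, adjusted p = 0.0483), with E2 libraries at 62.1 to 84.5 CPM and fulvestrant libraries at 51.2 to 74.1 CPM. The ranges over both arms overlap, and within each arm the fulvestrant libraries of ITGA3, GRN and SEZ6L2 lay below the E2 libraries. The rule for naming genes filled the last place among lower genes with RPS2P5, a pseudogene of a ribosomal protein, at -0.14 on the log2 scale (SE 0.03, adjusted p = 0.0569).

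The largest rises were in RP11-512F24.1, a transcript with a clone-based name, and MBNL2. RP11-512F24.1 was at 14.5 and 13.2 CPM with E2 and 18.5 and 16.1 CPM with fulvestrant in shNC, and at 13.5 and 12.2 CPM with E2 and 18.8 and 17.8 CPM with fulvestrant in shARID1A (log2 fold change 0.42, SE 0.09, adjusted p = 0.0446). MBNL2, a muscleblind-like regulator of alternative splicing, was at 30.2 and 30.6 CPM with E2 and 38.5 and 36.1 CPM with fulvestrant in shNC. In shARID1A it was at 17.3 and 14.4 CPM with E2 and 20.7 and 27.0 CPM with fulvestrant, so the libraries of a group spread more widely there. Its rise was 0.42 (SE 0.08, adjusted p = 0.0421), or 0.30 (SE 0.11) in shNC and 0.60 (SE 0.13) in shARID1A. The difference between the arms gave an unadjusted p of 0.0808 in edgeR's fit of group means over the 12 libraries. MBNL3, another muscleblind-like protein, rose by 0.28 (SE 0.05, adjusted p = 0.0263), from 60.7 and 70.2 CPM to 77.4 and 86.2 CPM in shNC and from 90.0 and 84.3 CPM to 101 and 107 CPM in shARID1A.

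Further genes that rose encode proteins that bind or process RNA. HNRNPA2B1, an abundant nuclear RNA-binding protein, was at 971 and 992 CPM with E2 and 1079 and 1113 CPM with fulvestrant in shNC, and at 982 and 946 CPM with E2 and 1063 and 1122 CPM with fulvestrant in shARID1A. It rose by 0.17 (SE 0.03, adjusted p = 0.0263), the smallest change among the genes that rose. PRPF4B, a spliceosomal kinase, rose by 0.27 (SE 0.06, adjusted p = 0.0483), and TRA2A, a splicing activator, by 0.24 (SE 0.05, adjusted p = 0.0467). These functional groupings were made after the values were seen and were not tested as groups. HNRNPA2B1, TRA2A, TNPO1, IQGAP1, SSR1, TGFBR1, ANLN, ARHGEF12 and SEC23A lie outside the rule for named genes and are named because they were called.

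Genes of the secretory route and the cell cortex were also among those that rose. SRP72, a subunit of the signal recognition particle, was at 122 and 133 CPM with E2 and 144 and 157 CPM with fulvestrant in shNC, and at 104 and 90.1 CPM with E2 and 116 and 113 CPM with fulvestrant in shARID1A (log2 fold change 0.24, SE 0.05, adjusted p = 0.0440). SSR1, part of the translocon-associated complex of the endoplasmic reticulum, rose by 0.20 (SE 0.04), SEC23A, a COPII coat subunit, by 0.20 (SE 0.04), and GOLGA4, a Golgi tether, by 0.24 (SE 0.05). IQGAP1, a scaffold of the cortical actin network, was at 541 and 588 CPM with E2 and 629 and 664 CPM with fulvestrant in shNC, and at 492 and 460 CPM with E2 and 510 and 588 CPM with fulvestrant in shARID1A (0.20, SE 0.04, adjusted p = 0.0440). ANLN, the actin-binding anillin of the cleavage furrow, rose by 0.22 (SE 0.05), and ARHGEF12 by 0.21 (SE 0.04).

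TNPO1, the nuclear import receptor transportin, had the smallest adjusted p of the genes that rose, 0.0239. It was at 302 and 313 CPM with E2 and 340 and 372 CPM with fulvestrant in shNC, and at 229 and 209 CPM with E2 and 247 and 276 CPM with fulvestrant in shARID1A, a log2 fold change of 0.23 (SE 0.04). TGFBR1, the type I TGF-beta receptor, rose by 0.22 (SE 0.05, adjusted p = 0.0446), from 169 and 183 CPM to 198 and 203 CPM in shNC and from 114 and 112 CPM to 125 and 143 CPM in shARID1A. FZD6, a Frizzled receptor for WNT ligands, rose by 0.25 (SE 0.06, adjusted p = 0.0495). NFE2L2, which encodes the antioxidant transcription factor NRF2, rose by 0.25 (SE 0.06, adjusted p = 0.0495), with E2 libraries at 51.9 to 60.2 CPM and fulvestrant libraries at 63.7 to 72.1 CPM. YOD1, a deubiquitinase, rose by 0.29 (SE 0.06), and FAM208B, a nuclear protein now named TASOR2, by 0.33 (SE 0.07), with adjusted p of 0.0483 and 0.0477. Of the 33 called genes, 12 have exons that overlap another gene, among them YOD1, KRT7, MUC1 and WARS, and reads of the partners could not be told apart without strand. TNPO1, SRP72 and SSR1 have named pseudogene copies, so their counts are uncertain in the same way.

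Fold change followed the base composition of the transcripts across all genes. The 22 genes that rose had a median GC content of 39.9% (over the 21 with a value) and the 11 that fell a median of 61.8%, against 48.4% over all genes tested. Across the 9922 genes at 5 CPM or more on average, Spearman's rank correlation between GC content and the pooled log2 fold change was -0.670 (genes share libraries and are not independent replicates). With these genes split by GC content into 10 bins, medians ran from 0.12 in the lowest bin to -0.08 in the highest. The trend was present in each arm, from 0.11 to -0.07 in shNC and from 0.13 to -0.09 in shARID1A. Set against the mean of its arm, a library's correlation with GC was 0.533 and -0.207 for the E2 libraries and -0.245 and -0.615 for the fulvestrant libraries of shNC. In shARID1A it was 0.129 and 0.626 with E2 and -0.0530 and -0.550 with fulvestrant. All 4 fulvestrant libraries were negative, and the 2 libraries of one group could differ by more than the treatments did, as for shNC with E2. The 2 E2 libraries whose removal left 1 call, replicate 1 of shNC and replicate 2 of shARID1A, had the 2 highest correlations of the 8 libraries; its part in the calls was measured only through the offsets given next. The DMSO libraries varied as widely, at 0.554 and -0.110 in shNC and -0.306 and 0.131 in shARID1A.

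**Figure D3:**
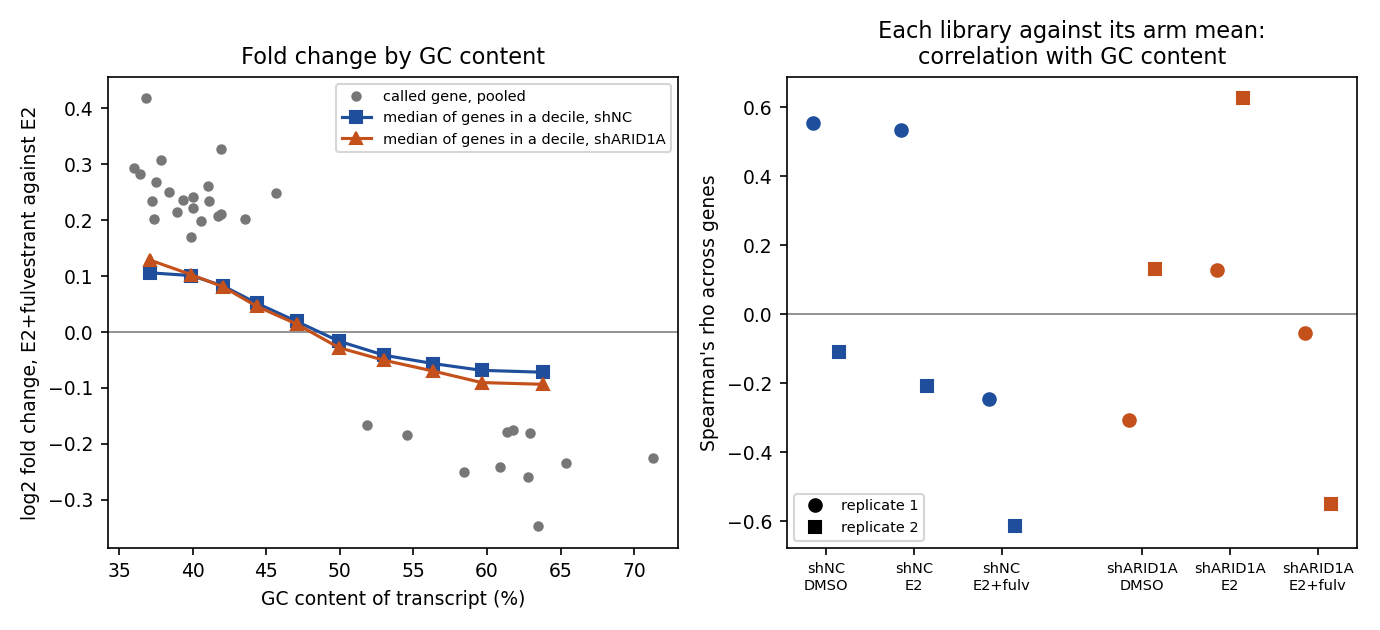
Left: log2 fold change with fulvestrant against GC content of the transcript in percent, with grey points for the called genes (pooled fit) and lines for the median of each of 10 bins of the 9922 genes in shNC (squares) and shARID1A (triangles). Right: for each library, Spearman's rank correlation across genes between GC content and the log2 difference from its arm's mean, with circles for replicate 1 and squares for replicate 2; all 4 fulvestrant libraries lie below 0 and the E2 libraries range from -0.207 to 0.626.

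When per-library offsets for GC content and exon length were put into the same fit, an alternative chosen after the data were seen, 4 genes were called and 1 of the 33, FASN, was among them. FASN then fell by 0.14 on the log2 scale (SE 0.02, adjusted p = 0.000151). All 33 kept their sign and had an unadjusted p under 0.05 in that fit, and the median size of their change was 0.611 of that without offsets. Another 7 of the 33 had an adjusted p under 0.1, of which 4 had negative and 3 positive values. The negative ones were ANPEP (-0.17, adjusted p = 0.0568), WARS (-0.13, adjusted p = 0.0568), ACSS2 (-0.13, adjusted p = 0.0818) and TRIB3 (-0.16, adjusted p = 0.0912). The positive ones were RP11-512F24.1 (0.42, adjusted p = 0.0568), IQGAP1 (0.13, adjusted p = 0.0673) and NFE2L2 (0.22, adjusted p = 0.0923). RP11-512F24.1 had no GC value and received no offset for GC content or length. Its unchanged size was therefore fixed in advance. KRT7 (-0.09, adjusted p = 0.247), MUC1 (-0.14, adjusted p = 0.228), HNRNPA2B1 (0.07, adjusted p = 0.271) and SEC23A (0.09, adjusted p = 0.552) lay farther from the threshold. The 3 genes called with the offsets and not in the fit without them were NEAT1, a nuclear long noncoding RNA listed in the table by its Ensembl identifier, MT-ND3, a mitochondrially encoded subunit of respiratory complex I, and SERBP1P5, a pseudogene. NEAT1 was at 717 and 784 CPM with E2 and 679 and 702 CPM with fulvestrant in shNC, and at 492 and 448 CPM with E2 and 409 and 450 CPM with fulvestrant in shARID1A. Its libraries overlapped in shARID1A, and its log2 fold change was -0.20 (SE 0.03) with offsets and -0.12 (SE 0.04, adjusted p = 0.127) without. MT-ND3 fell by 0.18 (SE 0.03, adjusted p = 0.0369) with offsets, and gave -0.16 (SE 0.04, adjusted p = 0.0789) without. Its libraries overlapped in shNC, at 415 and 385 CPM with E2 and 359 and 396 CPM with fulvestrant. With the offsets, 10 of 13 mitochondrially encoded genes were lower and 0 higher at an unadjusted p under 0.05. Without offsets, 3 of the 13 were lower and 0 higher at that p, and 0 were called. Their median without offsets was -0.04 on the log2 scale, with -0.07 in shNC and -0.02 in shARID1A. Over all 16998 genes, 1474 had such a p in either direction with the offsets and 2573 without.

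The 33 genes were called by the pooled fit of both arms, which favours genes that move the same way in each, so their likeness between arms is a description and no test. In all 33 the sign was the same in both arms and the libraries of the 2 treatments did not overlap in either; without regard to the test, 6.28% of genes did this upward and 5.71% downward. The smallest unadjusted p for a difference between arms among the 33 was 0.0761, for TRIB3, which fell by 0.16 (SE 0.06) in shNC and by 0.33 (SE 0.07) in shARID1A. The p above the threshold does not show that the arms respond alike, and with 2 libraries a group the SE of such a difference was 0.09 for TRIB3. Across the 9922 genes the log2 fold changes of the arms, which share no library, had a Pearson's r of 0.372 and a Spearman's rank correlation of 0.437, and both follow GC content. Of 960 genes with an unadjusted p up to 0.05 in shNC, 88.8% had the same sign in shARID1A; over all 10326 genes of this level the share was 69.2%. With a mean per group over the 12 libraries, fulvestrant changed 1 gene in shNC (0.00588% of genes tested) and 1 in shARID1A, 0 of them among the 33, beside 1320 and 1660 genes at an unadjusted p under 0.05. Both are pseudogenes, and the replicates of SCDP1 lay far apart in 2 groups of shARID1A. GNG5P2 had 116 and 158 counts with E2 and 6 and 0 counts with fulvestrant in shNC, and 7 and 4 with DMSO. Its call in shNC was kept with RLE factors, with no filter and with the replicate number as a block. SCDP1 was at 86.0 and 91.3 CPM with E2 and 33.6 and 13.4 CPM with fulvestrant in shARID1A, where its DMSO libraries stood at 86.8 and 26.0 CPM. The call of SCDP1 in shARID1A was lost with DESeq2 (adjusted p = 0.131) and without replicate 2 of shARID1A with fulvestrant (adjusted p = 0.129). The test of the difference between arms gave 2 calls (0.0118% of genes tested), for these same 2 pseudogenes. With DESeq2 only the call of GNG5P2 remained. That of SCDP1 (adjusted p = 0.0397) was lost without either fulvestrant library of shNC, either E2 library of shARID1A or replicate 2 of shARID1A with fulvestrant, with adjusted p from 0.143 to 0.612.

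**Figure D4:**
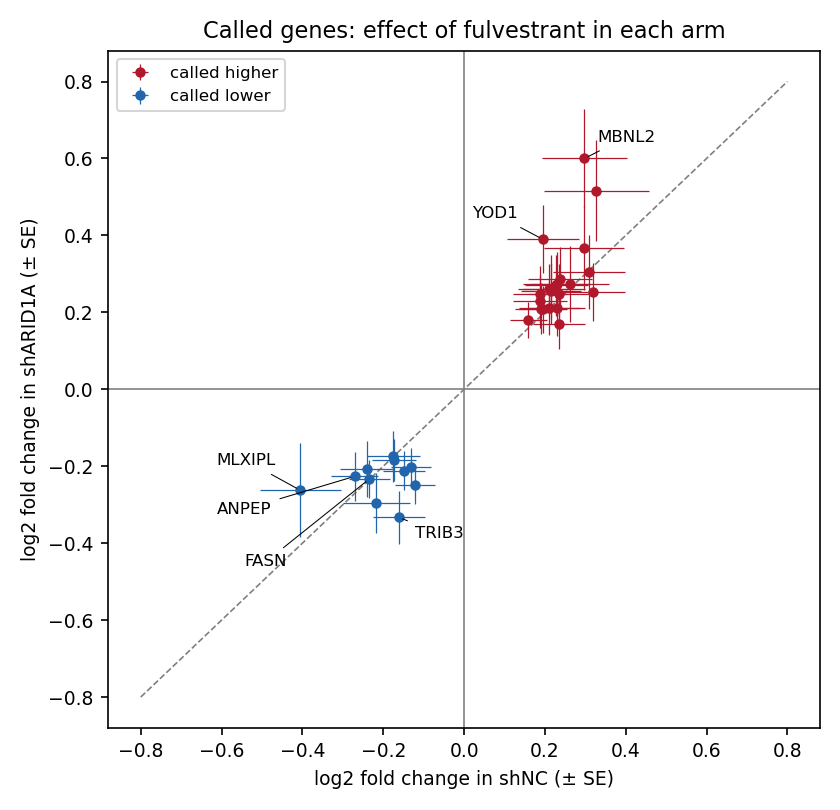
Log2 fold change with fulvestrant in shNC (horizontal) and in shARID1A (vertical) for the 33 called genes, with bars of 1 SE from the fit over 12 libraries and a dashed line where both are equal. All 22 genes that rose lie in the upper right and all 11 that fell in the lower left, and MBNL2 lies highest.

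Of the pathways listed for this tissue and treatment, 33 had tested members, and 5 of these lists held a called member. The called members were FASN, ACSS2, TRIB3, KRT7, MUC1 and NFE2L2, among 569 tested entries in which a gene can recur. Over all 16998 genes tested, 0.194% were called. The lists were chosen with earlier results of these data known, so these counts are a description and no test. Medians over the 28 lists with at least 7 tested members ran from -0.10 to 0.04 on the log2 scale, against 0.00 over all genes. Of 16 tested genes of fatty acid synthesis and storage, 2 fell (FASN and ACSS2) and 0 rose, and the list's median was 0.01. ACLY, which makes cytosolic acetyl-CoA from citrate, gave -0.10 on the log2 scale (SE 0.03, adjusted p = 0.120), and FADS2, a fatty acid desaturase, -0.15 (SE 0.05, adjusted p = 0.161). ACSL3 and ACSL1, which activate long-chain fatty acids, had positive values of 0.12 and 0.14 that did not pass (adjusted p = 0.187 and 0.287). In cholesterol synthesis, 0 of 25 genes were called, 17 had negative values and the median was -0.04. SREBF1, the sterol-regulated transcription factor for lipogenic genes, was at 650 and 612 CPM with E2 and 591 and 551 CPM with fulvestrant in shNC, and at 657 and 708 CPM with E2 and 611 and 615 CPM with fulvestrant in shARID1A. Its libraries did not overlap in either arm, and its value of -0.15 (SE 0.04, adjusted p = 0.0620) missed the threshold.

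Of 38 tested estrogen response targets, 0 were called, 29 had negative values and the median was -0.05, in a list with a median GC content of 52.8%. With the offsets for GC content and length the median was -0.02. At an unadjusted p under 0.05, 5 were lower and 0 higher, beside 1176 lower and 1397 higher of all 16998 genes. With the offsets, 3 of the list were lower and 1 higher at that p. The 5 without offsets were IER3, an early-response regulator of apoptosis (-0.24, adjusted p = 0.107), IGFBP4, an IGF-binding protein (-0.12, adjusted p = 0.144), CTSD, the lysosomal protease cathepsin D (-0.14, adjusted p = 0.151), ABCA3, a lipid transporter (-0.45, adjusted p = 0.159), and ALPL, an alkaline phosphatase (-0.10, adjusted p = 0.173). CTSD was at 232 and 204 CPM with E2 and 204 and 182 CPM with fulvestrant in shNC, so the treatments overlapped there, and at 194 and 210 CPM with E2 and 192 and 184 CPM with fulvestrant in shARID1A. MYC (-0.01, adjusted p = 0.933), CCND1 (-0.03, adjusted p = 0.881) and XBP1 (-0.01, adjusted p = 0.910), which estrogen raises in many responsive cells, had values near 0. Of 22 tested receptor coregulators and pioneer factors, 0 were called and 13 had positive values; NCOA7, a coactivator, had the smallest p (0.23, SE 0.06, adjusted p = 0.0722).

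Of 21 tested genes in the list for unfolded proteins and amino acid shortage, 1 fell, TRIB3, 0 rose and the median was -0.06. PHGDH, the first enzyme of serine synthesis, gave -0.12 (adjusted p = 0.0863), and the chaperone HSP90B1 gave 0.15 (adjusted p = 0.0887). In the epithelial list, 2 of 17 fell, KRT7 and MUC1, 0 rose and the median was -0.10; TJP1, a tight-junction scaffold, had a positive value of 0.15 (adjusted p = 0.174). The aryl hydrocarbon receptor list held 1 gene that rose, NFE2L2, of 9, and CYP1B1, a classical target of that receptor, gave 0.19 (adjusted p = 0.198). Interferon-stimulated genes had 0 calls among 21, 18 negative values and a median of -0.09, which was -0.05 with the offsets. NF-kB and inflammatory genes had 0 calls among 19, 15 negative values and a median of -0.10, which was -0.07 with the offsets. Of 32 cell cycle genes, 0 were called. TOP2A, topoisomerase II alpha, gave 0.22 (adjusted p = 0.0594) and MKI67, the Ki-67 antigen, 0.22 (adjusted p = 0.0887). The replication helicase subunit MCM5 gave -0.12 (adjusted p = 0.157). At an unadjusted p under 0.05, 6 of the list were higher and 8 lower, and with the offsets 5 were higher and 0 lower. MKI67 gave 0.23 with the offsets (adjusted p = 0.118). Apart from MKI67, whose GC content of 48.3% lay near the median of all genes, the GC content of these members moved with their sign in the way given above. Its part in each value was not tested beyond the offsets.

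**Figure D5:**
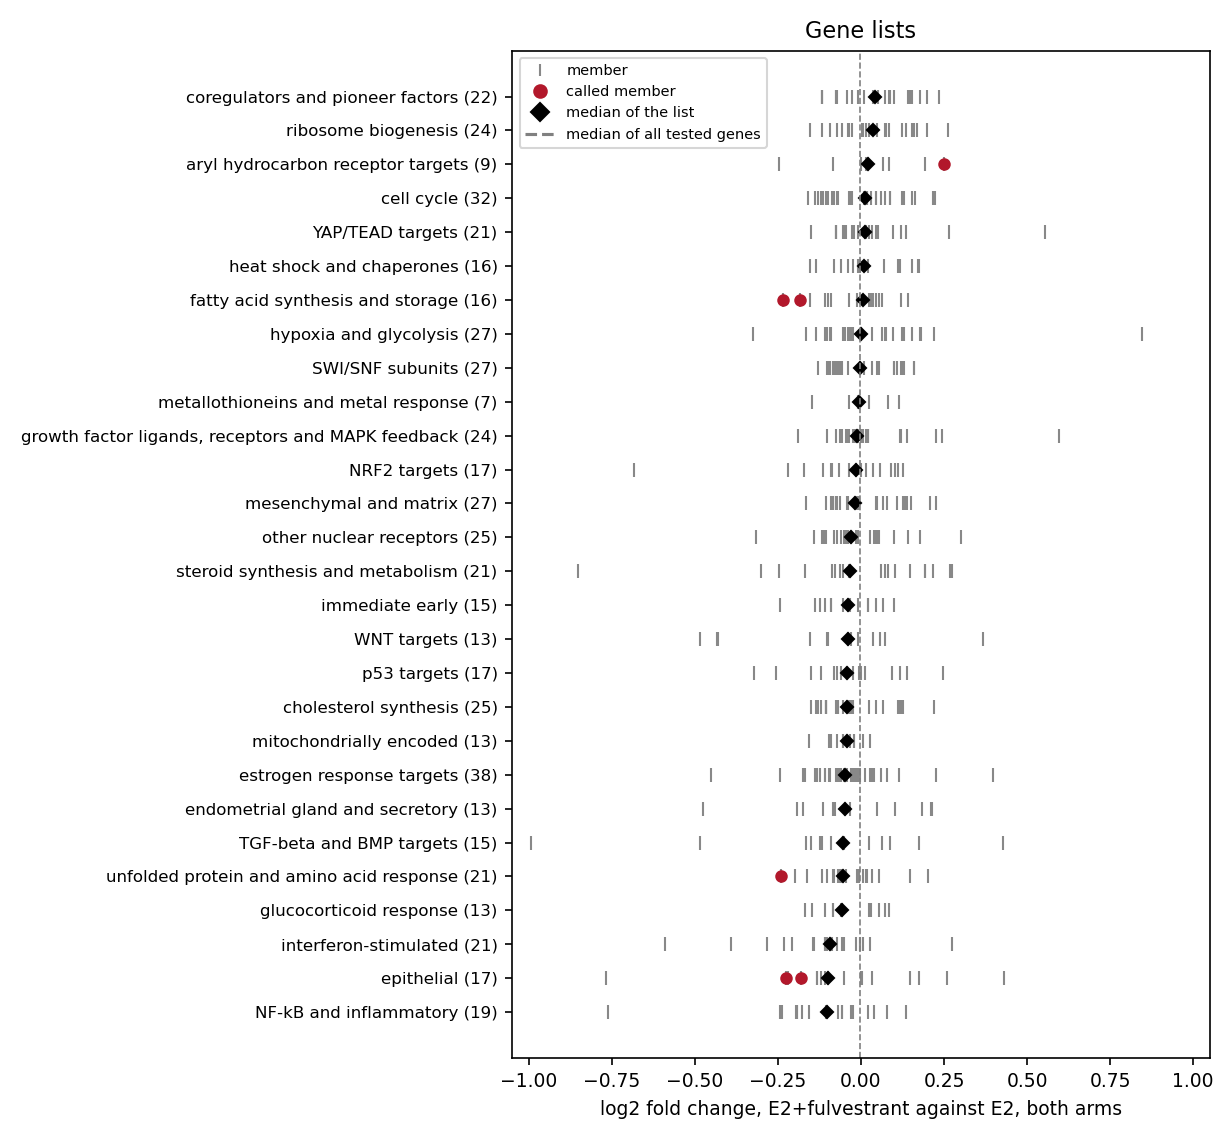
Pooled log2 fold change with fulvestrant (horizontal) for each tested member (ticks) of the 28 lists with at least 7 tested members (rows, number tested in brackets), with red points for called members and diamonds for list medians. List medians lie between -0.10 and 0.04, and the called members belong to 4 of the plotted lists.

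Of the 33 called genes, 22 had an entry in the RefSeq promoter table (GRCh38.p14): 15 that rose and 7 that fell. FASN, KRT7, ITGA3 and SEZ6L2, which fell, were not among the 22, so their promoters were not searched. The estrogen response element GGTCANNNTGACC, searched on both strands in the 250 bases before the start, was in 0 of these 22 and in 0.0439% of the 27305 promoters of that length. Its half-site GGTCA was in 33.1% of all promoters, in 4 of the 15 (SRP72, ANLN, FAM208B and YOD1) and in 2 of the 7 (ACSS2 and GRN). The promoters of these 2 genes that fell are shown because they hold the half-site, in capitals, on the minus strand for ACSS2 and on the plus strand for GRN. The windows are chr20:34874739-34874988 for ACSS2 and chr17:44345052-44345301 for GRN, both read on the plus strand of GRCh38.p14.
ACSS2: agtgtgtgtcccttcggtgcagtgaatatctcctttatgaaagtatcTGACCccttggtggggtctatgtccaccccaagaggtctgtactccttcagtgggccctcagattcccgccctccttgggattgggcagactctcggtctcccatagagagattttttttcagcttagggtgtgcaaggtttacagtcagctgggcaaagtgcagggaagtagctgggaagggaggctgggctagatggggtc
GRN: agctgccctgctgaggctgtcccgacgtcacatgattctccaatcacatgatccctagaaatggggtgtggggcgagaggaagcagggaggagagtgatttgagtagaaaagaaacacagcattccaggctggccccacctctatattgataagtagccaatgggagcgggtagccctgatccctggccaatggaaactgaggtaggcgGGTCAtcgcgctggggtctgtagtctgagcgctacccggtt
The half-site lies 203 to 199 bases before the start in ACSS2 and 41 to 37 bases before it in GRN. The E-box CACGTG, which ChREBP and related factors bind in pairs, was in 6.49% of all promoters, in 2 of the 15 (SSR1 and ANLN) and in 0 of the 7. The sterol regulatory element TCACNCCAC was in 0.875% of all promoters and in 0 of the 22. The GC box GGGCGG was in 42.3% of all promoters, in 9 of the 15 and in 6 of the 7. A match describes the letters only and not binding.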

How the data were processed

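Poly(A) libraries (TruSeq) were made from TRIZOL-extracted RNA, per the labels' protocols. The deposited values are counts of reads per gene, which the authors had not normalized. FastQC, cutadapt and Trim Galore served for quality control and trimming, Subread 2.0.0 for alignment to hg19 and featureCounts 2.0.0 for counting, per the submitters' processing notes; the file headers record no option for strand, read pairs or multiply aligned reads. The table of the series held 45293 genes and the single-library files 27 more, with 0 differing values. Library totals over all 12 libraries ran from 28753202 to 38589497 counts. Exon length was taken from another deposited column. GC content of the longest GENCODE v29 transcript was known for 91.1% of genes tested, and genes without it received no offset for GC content or length.

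The tests used edgeR 4.0.16 under R 4.3.3 (filterByExpr, TMM factors, glmQLFit with legacy = FALSE, glmQLFTest). The pooled comparison used the 8 libraries with arm as a block, and arms alone and their difference used group means over 12 libraries. P-values were adjusted over 16998 genes by the Benjamini-Hochberg method, and genes under 0.05 were called. Alternatives were DESeq2 1.42.0, RLE factors, no filter, other models and each library left out. In simulated data with 50 changed genes of each size, the pooled fit called 22% at 1.15-fold, 78% at 1.3-fold and 98% at 1.5-fold. There, 12 unchanged genes were called among 16605. The simulation drew each gene on its own and gave no library a trend with GC content, unlike the data. Its shares and false calls may therefore not hold for the data. Genes were named by rule: the 12 largest called changes each way (filled by smallest p), 6 each way for the difference between arms, ESR1, ESR2, PGR, GREB1 and ARID1A, and in each list the members of smallest p, at most 4. A few genes are not reported here. Other named genes were chosen after their values were seen. The members and the 34 gene lists were chosen with earlier results of these data known.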

Additional observations from a re-analysis of the deposited data

Results flagged for a closer look

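GNG5P2, a pseudogene on the X chromosome (hg19, 109589700 to 109590201), differed between arms in its response by 6.09 on the log2 scale (SE 0.69, adjusted p = 8.7e-06, edgeR): 116 and 158 counts with E2 against 6 and 0 with fulvestrant in shNC, and 54 and 146 against 128 and 151 in shARID1A. SCDP1, a pseudogene of a fatty acid desaturase, differed by -1.98 (SE 0.36, adjusted p = 0.0397, edgeR). It had 88.8 and 78.3 CPM against 86.7 and 87.6 CPM in shNC and 86.0 and 91.3 CPM against 33.6 and 13.4 CPM in shARID1A. DESeq2 gave -1.96 for SCDP1 and did not call it (unadjusted p = 0.0163, adjusted p = 0.9999). Reads from near-identical copies could be split between genes in the counting, and its part in these values was not tested.

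SEPT7, a septin of the cytoskeleton, is in the single-library files and not in the table of the series. It rose by 0.24 on the log2 scale (SE 0.05, adjusted p = 0.0450), from 118 and 143 CPM with E2 to 147 and 161 CPM with fulvestrant in shNC and from 119 and 105 CPM to 129 and 138 CPM in shARID1A. Of the 22 tested genes outside the series' table it was the 1 called, beside 34 of all 17020 genes in that fit. SEPT7 was not put through DESeq2, the offsets for GC content and length, or the fits with a library left out.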

How the results depend on the processing

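The pooled count of 33 was 429 with DESeq2 (32 of the 33 kept), 20 with RLE factors, 63 with no filter, 11 with group means over 12 libraries (9 kept), 4 with offsets for GC content and length, and 1 to 330 with a library left out. FASN was called in all 16 settings, and each other called gene in 5 to 11 of them; 0 reversed. The E2 count of 0 was 1 with group means over 12 libraries and 0 to 2 with a library left out. The count of 0 for E2 with fulvestrant against DMSO was 1 with RLE factors and 0 to 24 with a library left out. In shNC the count of 1 was 2 with DESeq2 (GNG5P2, with no adjusted p there, is not among them), 19 with no filter and 1 to 6 with a library left out. In shARID1A the count of 1 was 13 with DESeq2 (without SCDP1, adjusted p = 0.131), 41 with no filter and 1 to 27 with a library left out. The count of 2 for the difference between arms was 1 with DESeq2, 9 with no filter and 1 to 4 with a library left out. The cause of these differences was not tested. With a library left out, its lone partner is assumed to vary like the other groups.

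Nothing in the labels ties same-numbered libraries to a shared culture or day. Deviations of same-numbered libraries over 10326 genes correlated at 0.168 to 0.282 in the 3 pairs of shNC groups but at -0.176 for E2 with fulvestrant in shARID1A, and at -0.228 to 0.243 between arms, so pairing was not established. With the replicate number as a block, the pooled count was 175 (127 higher, 48 lower). It was 17 with the offsets as well, among them ANPEP, WARS, RP11-512F24.1 (which received no offset) and IQGAP1 (each adjusted p = 0.0481). The block gave 1 for E2 with fulvestrant against DMSO, 5 in shNC and 9 in shARID1A. With crossed numbers, shARID1A gave 16.

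Depth limits genes of low count such as ESR1 and ESR2. In the simulation, which held no trend with GC content, a 1.15-fold change was near the edge of what the pooled fit called.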
